A study of Mus musculus with 8 samples.

Results

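The levels of 8 genes linked to the pathway of 5-methylcytosine oxidation and removal were examined in RNA-seq data from mouse embryonic stem cells (mESCs). They were Tet1, Tet2 and Tet3, which encode the TET dioxygenases, the CXXC zinc finger genes Cxxc4 and Cxxc5, and the DNA glycosylase genes Tdg, Mbd4 and Smug1. The genes were listed by their place in this pathway and were found by their symbols in the deposited table, in which all 8 of the 8 had a row among 19429 genes.

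The cells were of the mESC line LF2 and were grown in medium with leukemia inhibitory factor and serum. WT cells (lines 2 and 5) kept the wild-type TET1 sequence, whereas D2018A cells (lines 7 and 8) had an alanine codon in place of the Tet1 aspartate codon that gives the edit its name. In all 4 lines TET1 carried a C-terminal FLAG tag, and each line gave 2 technical replicates, so the labels describe 8 libraries, 4 per genotype. Per the study's methods the lines were clonal, both Tet1 alleles carried the tag followed by a separately translated fluorescent protein, and the WT lines but not the D2018A lines lacked a large stretch of DNA distal to the cut site. Genotype and deletion thus coincide in the labelled lines, and the study's separate control cells with wild-type TET1 and an intact copy of that DNA are not analysed here.

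TET proteins are iron- and 2-oxoglutarate-dependent dioxygenases that convert 5-methylcytosine to 5-hydroxymethylcytosine and then to 5-formylcytosine and 5-carboxylcytosine. TDG excises the last pair of these bases from DNA, and base excision repair fills the gap with an unmodified cytosine. MBD4 and SMUG1 are glycosylases that remove thymine or uracil-type bases, including 5-hydroxymethyluracil in the case of SMUG1. TET1 and TET3 have a CXXC zinc finger of their own, whereas that of TET2 became a separate gene, Cxxc4, during evolution, and Cxxc5 encodes a related zinc finger protein.

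The edit that separates the genotypes lies in the last coding exon of Tet1. The annotated sequence and 2 designed repair templates, those with a GFP reporter, are printed below to show the edited codon. The study's templates with a tdTomato reporter were not compared. Each is given 5′ to 3′ on the coding strand with the edited codon in capitals. The annotated stretch lies at chr10:62812583-62812615 on the minus strand of GRCm38.
Tet1 annotated: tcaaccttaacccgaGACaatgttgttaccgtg
wild-type repair template: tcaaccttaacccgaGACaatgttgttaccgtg
D2018A repair template: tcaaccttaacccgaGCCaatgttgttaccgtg

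Positions are counted from the A of the start codon of the longest coding transcript of Tet1. The GFP templates differed by the substitution A6053C and by no other base over the 150 compared bases up to the stop codon. The edited codon falls in exon 13 of 13, and 21 of the 2039 residues follow it. The wild-type template differed from the annotated sequence by C6102A, a difference that the D2018A template shared. The tag and the reporter are not in the annotation used here, and the deposited table does not show how many reads carried either codon.

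The deposited table gave 1 usable expression value per gene, the authors' mean over all libraries of their fit, in read counts scaled by the size factor of their library. A mean over all libraries holds no value for WT or D2018A, so the question of whether the edit altered the transcripts of these 8 genes was not analysed here. The authors' own fold changes and p-values were not used. No gene's value below has a replicate error, and whether neighbors in the order of levels differ could not be tested. Fewer cells expressing a gene and less RNA per cell cannot be told apart in such bulk samples.

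The lowest means showed how many libraries lay behind that value. Genes detected by 1 read in all share the smallest value that their library can add to the mean, here termed a step. Among values that were not sums of lower steps, 12 such steps were found, each shared by between 38 and 123 genes. The steps corresponded to size factors of 0.726 to 1.47. This number of steps corresponds to 12 libraries, 4 more than the 8 labelled ones, and the group of the additional 4 is not given in the labels. All levels below are averages over these 12 libraries.

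The marker genes of embryonic stem cells were high in the table. All 9 of 9 markers lay above the median of all genes, from 519.5 mean normalized counts per kilobase of exon for Zfp42 to 3817 for Esrrb. Of the 7 fibroblast markers, which feeder cells would bring, 6 had a row, and they ranged from 0.00948 for Col3a1 to 64.8 for Thy1. The 6 primitive endoderm markers reached 100.2 per kilobase (Sox7), the 5 trophoblast markers 460 (Tfap2c), the 4 neural markers 929 (Tubb3) and the 4 blood markers 5.23 (Spi1).

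The 8 genes spanned a wide range of levels. Tet1 and Tet2 were among the most abundant transcripts, and Cxxc5 lay above 94.7% of all genes per kilobase. Tet3, Mbd4 and Smug1 lay in the middle of the distribution, and Tdg and Cxxc4 lay below the median of all genes. Levels of different genes are compared per kilobase of merged exons, where the median of the 19342 genes with an exon length was 17.1. On this scale 6 of the 8 genes lay above the median. The number was 3 when only genes with a mean of at least 10 were ranked. It was 7 when Tdg alone was scaled by the part of its transcript that has no copy, as described below.

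**Figure D1:**
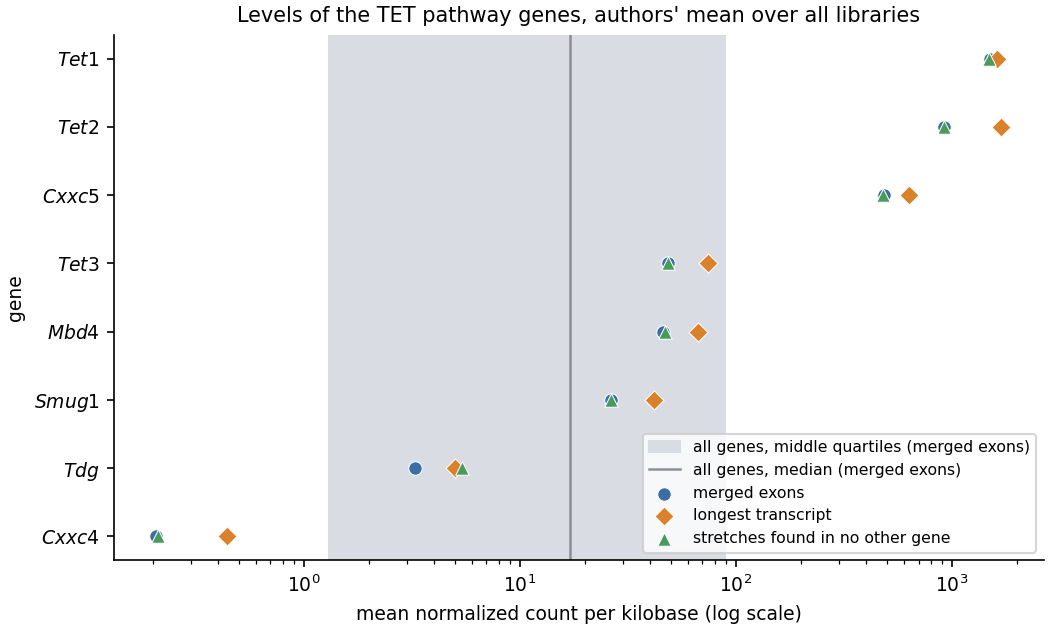
Level of each gene as the authors' mean normalized count per kilobase, on a logarithmic axis, divided by the length of merged exons (circles), of the longest transcript (diamonds) or of the 50-base stretches found in no other gene (triangles). The gray band spans the middle quartiles of all genes per kilobase of merged exons, from 1.30 to 88.8, and the line marks their median of 17.1; Tet1, Tet2 and Cxxc5 lie above the band and Cxxc4 lies below it, and there is no error bar because each value is 1 mean.

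Tet1 (ENSMUSG00000047146, chromosome 10, bases 62804570 to 62908996 of GRCm38, minus strand) had a mean of 23077 normalized counts. This was rank 20 of all genes by the mean and 0.211% of the sum of all means. Per kilobase its level was 1493, rank 222 on that scale, which was 87.2 times the median gene and higher than 98.9% of all genes. The mean corresponds to between 200985 and 408156 reads over the 12 libraries, and the 95% counting interval of the mean was 22976 to 23178.

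Tet2 (ENSMUSG00000040943, chromosome 3, bases 133463679 to 133545139, minus strand) was the other dioxygenase gene with an abundant transcript in these cells. Its mean was 15543 normalized counts, rank 31 of all genes by the mean. Its level per kilobase was 921, or 53.8 times the median and rank 452 on that scale. Tet1 was 1.62 times as high as Tet2 per kilobase of merged exons. With the length of the longest annotated transcript, 14369 bases for Tet1 and 9179 for Tet2, that ratio turned to 0.948. Which of Tet1 and Tet2 had the higher level per length thus depended on the transcript length assumed, and the table holds no value per transcript.

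Tet3 (ENSMUSG00000034832, chromosome 6, bases 83362373 to 83459084, minus strand), which is best known as the dioxygenase of the oocyte and zygote, had a mean of 807 normalized counts and a level of 48.3 per kilobase. Tet2 was 19.1 times and Tet1 30.9 times as high per kilobase. Of the summed level per kilobase of the 3 TET genes, Tet1 made up 60.6%, Tet2 37.4% and Tet3 1.96%. With the longest transcripts these shares were 47.6%, 50.2% and 2.19%. Tet3 was therefore a small part of TET transcripts under either length, while still lying above 65.2% of all genes.

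The 2 separate CXXC genes lay at opposite ends. Cxxc5 (ENSMUSG00000046668), whose product is also known as RINF, had a mean of 1455 normalized counts and a level of 484 per kilobase, above 94.7% of all genes and 10.0 times that of Tet3. Cxxc4 (ENSMUSG00000044365), whose product IDAX is known to bind TET2 and to lower its protein level, had a mean of 2.79 normalized counts and a level of 0.208 per kilobase, above only 10.8% of all genes. Its mean corresponds to between 24 and 50 reads over all 12 libraries, and the 95% counting interval of the mean, taken at the lower read number, was 1.79 to 4.16. The ratio of Cxxc5 to Cxxc4 per kilobase was 2321, and 1432 with the longest transcripts.

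The Cxxc4 gene (chromosome 3, bases 134236484 to 134262161, plus strand) lies on the same chromosome as Tet2. In these cells Tet2 stood second, with Cxxc5 next after it, and Cxxc4 last of the 8 genes in level per kilobase of merged exons. These are RNA levels, and a relation between them was not tested.

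Among the glycosylase genes, Mbd4 and Smug1 were moderately expressed. Mbd4 (ENSMUSG00000030322, chromosome 6, bases 115840697 to 115853371, minus strand) had a mean of 242 normalized counts and a level of 45.8 per kilobase, above 64.3% of all genes. Smug1 (ENSMUSG00000036061, chromosome 15, bases 103153307 to 103158002, minus strand) had a mean of 162 and a level of 26.4 per kilobase. Mbd4 was 1.73 times as high as Smug1 per kilobase. For Smug1 the merged exon length used, 6141 bases, exceeds the whole span of its coordinates above. If reads were counted only within those coordinates, its level per kilobase is too low and this ratio too high. Other comparisons of Smug1 per kilobase share this limit. Counting intervals of the means, 232 to 253 for Mbd4 and 154 to 171 for Smug1, did not overlap, but these intervals cover counting error only.

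Tdg (ENSMUSG00000034674, chromosome 10, bases 82629828 to 82650799, plus strand), the glycosylase for 5-formylcytosine and 5-carboxylcytosine, was listed with a mean of only 17.5 normalized counts. This corresponds to between 152 and 311 reads over the 12 libraries, with a counting interval of the mean of 14.9 to 20.6. Its level of 3.27 per kilobase lay above 32.8% of all genes, and Mbd4 was 14.0 times and Smug1 8.09 times as high. Reads in this study were 50 bases long, and much of the Tdg transcript exists base for base in other places of the mouse genome. The listed level therefore has to be read together with the share of Tdg that such reads can assign to the gene.

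Each gene's exons were divided into all 50-base stretches, and each stretch was searched in every other annotated transcript on both strands. In Tdg, 58.8% of 5556 distinct stretches were found in no other gene. A further 35.5% occurred in a gene elsewhere, and 5.72% only in Glt8d2, a gene on the opposite strand that overlaps the end of Tdg. The other members were nearly free of such sharing. Tet2, Tet3, Smug1 and Cxxc5 had at least 99.9% unique stretches, Tet1 had 99.5%, Cxxc4 98.5% and Mbd4 95.1%. The shared stretches of Cxxc4 lay in the antisense gene Gm26691, and 3.19% of all stretches of Mbd4 lay in the antisense gene Gm44206. Whether the reads were counted by strand is not given in the sources used here, so reads at these overlaps may belong to either gene.

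**Figure D2:**
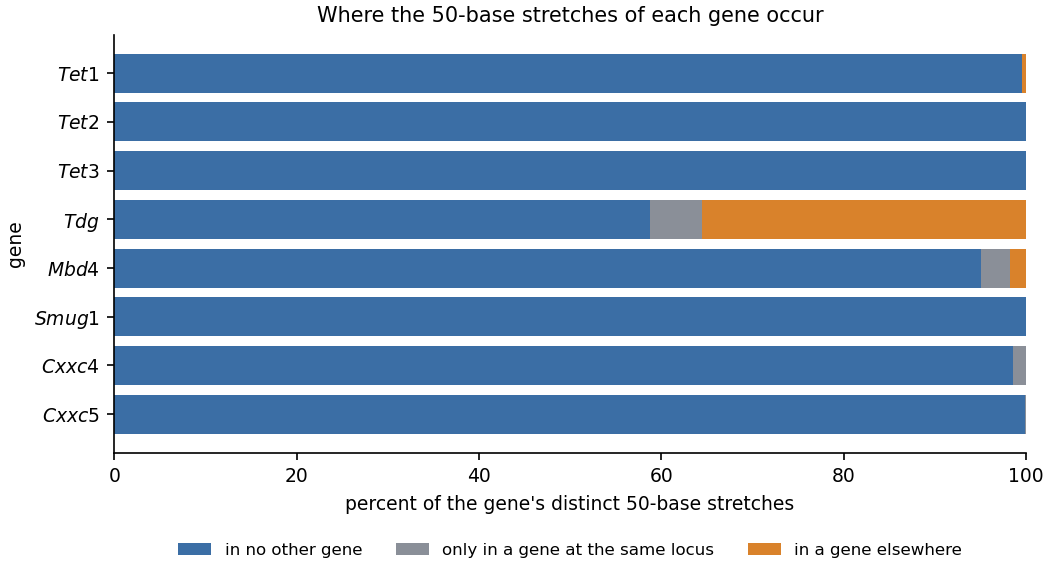
Share of each gene's distinct 50-base stretches, in percent, that occurs in no other annotated gene (blue), only in an overlapping gene (gray) or in a gene elsewhere (orange). Tdg is the exception, with 58.8% unique stretches, while the other 7 genes have 95.1% or more.

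Across the 16922 protein-coding genes of the table with such a value, the median share of unique stretches was 99.6%. In 18.0% of them the share was under 90%, and in 4.62% it was at or below that of Tdg. Genes with under 60% unique stretches had a median level of 6.39 per kilobase, against 25.8 for genes with 60% to 90% and 26.2 for genes with 90% or more. Per kilobase of unique stretches, computed only for genes with at least 200 such stretches, the medians of these ranges were 18.9, 32.4 and 26.2. The medians before and after this scaling may therefore cover different genes. Tdg, whose 58.8% lies just inside the lowest range, had 5.37 per kilobase of unique stretches.

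The copies of Tdg are 4 processed pseudogenes, which are reverse-transcribed copies of a spliced transcript put back into the genome. Tdg-ps lies on chromosome 15 (bases 82516311 to 82519278), Gm9855 on chromosome 10 (42054113 to 42055306), Gm5597 on chromosome 7 (76244746 to 76245938) and AC122846.1 on chromosome 19 (33673329 to 33673541). Along the transcript Tdg-201, which has 2910 stretches of 50 bases, 65.9% occurred in at least 1 of them. Within the coding sequence the share was 91.2% of 1142 stretches, and after the stop codon it was 55.9% of 1558. Tdg-ps held 54.4% of the stretches of the transcript, Gm9855 30.1%, Gm5597 28.6% and AC122846.1 4.19%. None of the 4 pseudogenes has a row among the measured genes.

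**Figure D3:**
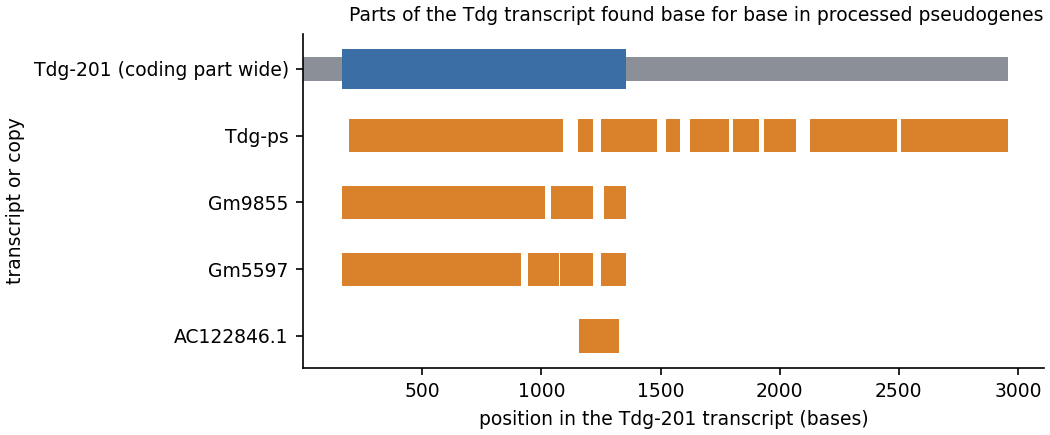
Map of the transcript Tdg-201 in bases from its first base, with the coding part drawn wide in blue, and below it the runs of at least 50 bases (orange) that each processed pseudogene shares exactly. Tdg-ps covers coding and later sequence, Gm9855 and Gm5597 cover the coding part, and AC122846.1 covers a short part, so that 91.2% of the coding stretches have a copy.

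A stretch that occurs in all 4 pseudogenes and another that sets Tdg apart from Tdg-ps are printed to show what a 50-base read could resolve. Both lie in exon 9 of 10 of Tdg-201, at chr10:82648022-82648071 and chr10:82648004-82648053 on the plus strand of GRCm38. The counterpart in Tdg-ps lies at chr15:82517460-82517509 on the plus strand. The base that differs is in capitals, and positions are counted from 1 at the 5′ end of the stretch.
Tdg shared by all copies: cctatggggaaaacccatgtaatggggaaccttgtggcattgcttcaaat
Tdg distinct: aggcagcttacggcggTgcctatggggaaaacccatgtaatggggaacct
Tdg-ps counterpart: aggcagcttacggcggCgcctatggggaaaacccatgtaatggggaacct

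A read of the first sequence has 5 places of equal match in the annotated transcripts, whereas a read of the second is assigned to Tdg by the single substitution T17C. Of the Tdg-201 stretches, 36.3% occurred in exactly 1 copy, 8.76% in 2, 19.9% in 3 and 0.928% in all 4, which leaves 992 stretches in no copy. If all counted reads came from those 992 stretches of this transcript, the level of Tdg would be 17.7 per kilobase. That value is close to the median of all genes per kilobase of merged exons, 17.1. Against their levels on merged exons, Smug1 would be 1.49 times and Mbd4 2.59 times as high. Only Tdg was rescaled here, so these comparisons mix length scales. Per kilobase of the longest transcript, Smug1 had 41.8 and Mbd4 67.0. On each of these length scales Tdg stayed seventh of the 8 genes. How the authors' counting treated reads with several places is not given in the sources used here, and the part of such reads in the level of Tdg was not tested.

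Promoter sequences of 7 of the 8 genes were found in the RefSeq table for GRCm38.p6, as windows of 300 bases from 250 before to 50 after the start. The dinucleotide CG, the substrate of TET proteins when methylated, was counted in each. The window of Tet2 held 57 CG sites, and 0.152% of the 32851 promoters held as many. Those of Cxxc4 and Tdg held 26 each, of Mbd4 25, of Tet3 22, of Tet1 17 and of Smug1 15, against a median of 7. A window need not lie at the outer end of the gene coordinates given above. The windows of Tet1 (bases 62887275 to 62887574), Tet2 (133544341 to 133544640) and Tet3 (83441629 to 83441928) lie wholly within those coordinates. That of Smug1 (103163235 to 103163534) lies outside them. All 7 windows thus held more CG sites than the median promoter, including those of Tdg and Cxxc4, the genes with the lowest levels. This count is a property of the reference sequence, and no methylation value enters it.

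Other genes of the pathway were taken from 7 lists, and 53 genes of these lists were measured. Of the 53, 48 lay above the median of all genes per kilobase and 5 lay above Tet2. The 9 genes of repair after the glycosylases had a median of 298 per kilobase and ranged from 29.6 for Polb, the gap-filling polymerase, to 1497 for Apex1, the endonuclease that cuts at the abasic site. Their median was thus above the levels of Mbd4, Smug1 and Tdg. The 8 other DNA glycosylases had a median of 55.1 per kilobase, from 14.7 for Neil3 to 586 for Ung, the main uracil glycosylase. Neil3, the lowest of them, was still above Tdg on the scale of merged exons.

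The 8 genes that supply or consume 2-oxoglutarate, the co-substrate of TET proteins, had a median of 220 per kilobase, with Idh3g, a subunit of the mitochondrial isocitrate dehydrogenase, at 2275 and D2hgdh at 2.23. The 8 other genes with a CXXC zinc finger had a median of 219 per kilobase, from 21.9 for Mbd1 to 717 for Dnmt1, the maintenance methyltransferase. All 8 were above Cxxc4. The cytosine deaminases had a median of 51.5 per kilobase, and the highest of them was Apobec3 at 342.

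The 9 readers of modified cytosine had a median of 82.7 per kilobase, from 21.9 for Mbd1 to 408 for Mbd3. The TET partners, of which 8 genes were measured because Vprbp and Dcaf1 are symbols of the same gene, had a median of 462 per kilobase. Hcfc1, a cofactor that OGT cleaves, was the highest at 3725, and Dppa3, which protects methylated DNA in the zygote, was the lowest at 8.16. Ogt, the O-GlcNAc transferase whose contact with TET1 the D2018A edit was made to disturb, had a level of 603 per kilobase, between Tet2 at 921 and Cxxc5 at 484.

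**Figure D4:**
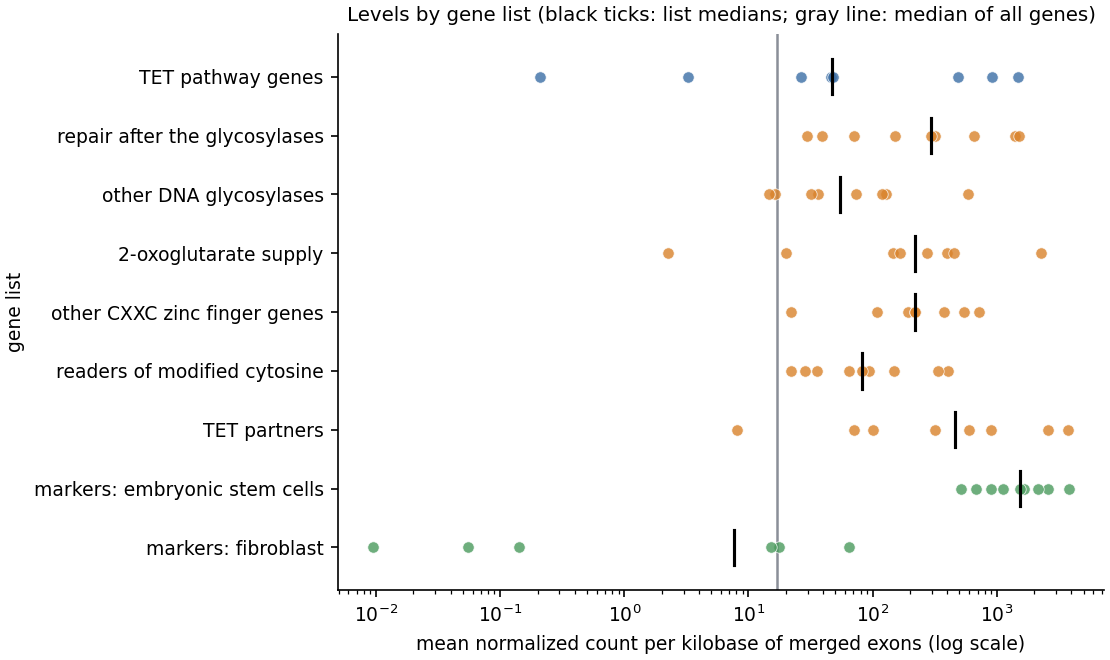
Authors' mean normalized count per kilobase of merged exons, on a logarithmic axis, for each measured gene of the 8 TET pathway genes (blue), of 6 of the 7 pathway lists, without the deaminases (orange) and of 2 marker lists (green). Black ticks are list medians and the gray line is the median of all genes, 17.1; the TET pathway genes run from 0.208 to 1493, and the stem cell markers lie between 519.5 and 3817.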

How the data were processed

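Total RNA from 8 labelled libraries was depleted of ribosomal RNA and sequenced by the authors as single-end 50-base reads. Per the labels and the study's methods, reads were aligned and counted with STAR 2.5.3a on GRCm38.p6 and normalized with DESeq2 1.20.0. The deposited table holds 1 row per gene; its mean column is the authors' signal, gene counts divided by size factors and averaged over all libraries. Its other value columns hold the authors' log2 fold change of D2018A over WT, standard error, statistic and p-values, which were not used. The table has 0 other columns of values per sample. The planned edgeR test of the genotypes needs counts per library and was not run.

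Levels were divided by exon lengths of the GENCODE vM21 annotation of GRCm38. Of the 8 genes, 6 had the same coordinates in both sources. Smug1 was not among these 6, and its merged exons in the annotation, 6141 bases, are longer than its listed span. Stretches of 50 bases were searched among all annotated transcripts instead of the genome, for which no sequence was used. Single-read steps required at least 30 genes. The lowest and highest steps bound the number of reads behind each value, and exact Poisson intervals (95%) cover counting error only. Every one of the 8 genes is named, and each pathway list is given by its count, median, and highest and lowest gene, with Ogt in addition; the lowest gene of 1 list is not reported here. The genes and lists were chosen with earlier results of these data known. Python 3.11.15, numpy 2.4.6, pandas 2.3.3, scipy 1.17.1 and matplotlib 3.10.9 were used, and the searches were tested on simulated data.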

Additional observations from a re-analysis of the deposited data

How the results depend on the processing

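No paired analysis was possible because the deposited table holds no value per library. For the same reason other settings of the genotype test (replicate block, DESeq2, no filter on low counts, leaving out each line) were not run. The 6 genes above the median of all genes became 3 when only genes with a mean of at least 10 were ranked. That filter left out 33.7% of genes. The count was 7 when Tdg alone was scaled by its 992 Tdg-201 stretches in no copy, with the median kept on merged exons. It was 6 in protein-coding genes, per gene, per longest transcript and per unique stretch, the last among genes with at least 200 unique stretches. With longest transcripts 2 genes changed place in the order and the ratio of Tet1 to Tet2 was 0.948 instead of 1.62. The ratio of Mbd4 to Tdg was 8.75 and that of Smug1 to Tdg 4.89 per unique kilobase. Stretches of 36 bases or a minimum of 95% left 1 gene, Tdg, under the minimum, and steps of at least 20 genes gave 12 libraries. The scalings by unique stretches in the count above the median and by Tdg-201 were chosen after seeing the data. Depth limits Cxxc4 and Tdg most.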

Other observations

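Of the 53 measured genes of the pathway lists, 9 had under 90% unique 50-base stretches, and 2 had a lower share than Tdg. Both act in the repair that follows TDG. They were Fen1, the flap endonuclease, with 23.3%, and Apex1, with 48.3%. These genes were picked after their values were seen. Their levels per kilobase, 153 for Fen1 and 1497 for Apex1, were above that of Tdg, 3.27. The part of shared reads in these levels was not tested.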
